A study of Mus musculus with 2 samples.

Results

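The genes described here are 8 TALE homeobox genes of the MEIS, PBX and PKNOX families, Meis1, Meis2, Meis3, Pbx2, Pbx3, Pbx4, Pknox1 and Pknox2, out of 21938 protein-coding genes of GENCODE M21 on the mm10 build. They were taken by name and not by any measured value, although earlier results of these data were known when they were chosen. Their peaks are of 2 kinds: TSS peaks, with a centre within 500 bp of any annotated transcription start site (TSS) of the gene, and distal peaks, centred more than 1 kb away from any TSS of a coding gene, for which a member has the nearest such TSS within 100 kb. By this rule 190 of 208674 peaks of replicate 1 and 145 of 196593 peaks of replicate 2 belong to the 8 genes.

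TALE homeodomain proteins carry an extra loop between helices of the homeodomain. MEIS and PKNOX proteins (the latter also called PREP) pair with PBX proteins, and these pairs share sites on DNA with HOX proteins. In the limb bud Meis1 and Meis2 are active in the proximal part, next to the trunk, where retinoic acid maintains them, and are kept off distally. PBX proteins act as their partners and as partners of HOX proteins in limb patterning.

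DNase-seq, which maps DNA that DNase I can cut in nuclei, was carried out on whole limb tissue of healthy mouse embryos of strain B6NCrl at day 14.5, with males and females pooled. The design is 1 untreated group of 2 libraries, labelled biological replicates 1 and 2, with no other tissue or stage to set against it. Both carry the same donor identifier, so the spread between them may be technical, and 2 instrument models are listed for replicate 2 where the labels name none for the other library. Peaks, nearly all 150 bp wide, were called in each library separately. Each has a signal, the authors' own value on a scale not given in the sources used here. Signals are therefore also given as a rank, the percentile of the peak within its own list. Read counts were not used, so the depth is unknown, and where a peak is absent it was not called at that depth. In whole tissue, a site open in fewer cells and a site less open in each cell cannot be told apart.

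The label of the tissue was checked against marker genes. A TSS peak shared by both replicates, meaning that a peak of replicate 2 covered at least 50% of the peak of replicate 1, was present at 6 of 6 limb mesenchyme genes (Prrx1, Prrx2, Twist1, Pitx1, Tbx5 and Msx1), 3 of 3 muscle genes, 2 of 3 cartilage genes, 2 of 3 epidermal genes and 1 of 3 endothelial genes. It was absent at 3 of 3 erythroid, 3 of 3 macrophage and 3 of 3 liver genes, and present at 1 of 3 neuronal genes. Among all protein-coding genes 64.6% had one, so a list of 3 genes says little by itself. At the muscle gene Pax3 only the peak of replicate 1 had its centre within 500 bp of a TSS. The median signal of all peaks was 42 in replicate 1 and 31 in replicate 2, so that a lower signal in replicate 2 is the general case and not a property of a gene.

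The sequences of the strongest shared distal peak of each member that has such a peak are shown first, because the counts below rest on sites of this kind. Each is the plus strand of GRCm38 (the assembly of mm10) over the peak of replicate 1. They lie at chr11:19020416-19020565 (Meis1), chr2:116071596-116071745 (Meis2), chr7:16153676-16153825 (Meis3), chr17:31557596-31557745 (Pknox1), chr9:37054196-37054345 (Pknox2), chr2:34249596-34249745 (Pbx3) and chr8:69874276-69874425 (Pbx4). Capitals mark exact matches, on either strand, to the motifs listed in the account of motifs, such as the TALE hexamer TGACAG, bound by MEIS and PKNOX proteins, and the E-box CAGCTG, bound by basic helix-loop-helix factors.
Meis1 distal peak: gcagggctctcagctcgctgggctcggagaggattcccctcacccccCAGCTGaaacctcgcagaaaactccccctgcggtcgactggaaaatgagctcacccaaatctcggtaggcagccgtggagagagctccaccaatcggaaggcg
Meis2 distal peak: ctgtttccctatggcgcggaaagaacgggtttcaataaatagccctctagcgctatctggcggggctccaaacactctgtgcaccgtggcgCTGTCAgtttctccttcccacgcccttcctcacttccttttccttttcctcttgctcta
Meis3 distal peak: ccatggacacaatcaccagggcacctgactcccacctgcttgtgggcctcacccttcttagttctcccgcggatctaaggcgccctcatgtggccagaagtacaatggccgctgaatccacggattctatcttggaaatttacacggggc
Pknox1 distal peak: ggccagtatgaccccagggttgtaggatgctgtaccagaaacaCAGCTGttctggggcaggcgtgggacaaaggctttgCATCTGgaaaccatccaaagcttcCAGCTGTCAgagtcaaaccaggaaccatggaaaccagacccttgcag
Pknox2 distal peak: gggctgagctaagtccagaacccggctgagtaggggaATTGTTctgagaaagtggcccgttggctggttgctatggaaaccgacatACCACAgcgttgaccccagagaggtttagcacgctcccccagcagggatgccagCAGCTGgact
Pbx3 distal peak: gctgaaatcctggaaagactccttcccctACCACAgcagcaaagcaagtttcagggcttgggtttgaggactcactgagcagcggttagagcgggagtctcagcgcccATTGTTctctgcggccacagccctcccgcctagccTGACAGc
Pbx4 distal peak: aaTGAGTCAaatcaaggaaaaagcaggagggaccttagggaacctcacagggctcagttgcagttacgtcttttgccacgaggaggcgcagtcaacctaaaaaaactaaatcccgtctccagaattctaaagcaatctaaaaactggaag
The TALE hexamer or its reverse complement is present in the Meis2, Pknox1 and Pbx3 sequences. In the Pknox1 sequence the hexamer, read as CTGTCA from base 107, runs into an E-box that starts at base 104. The E-box is also in the Meis1 sequence, from base 48, and near the end of the Pknox2 sequence, from base 141. The Pbx4 sequence holds an AP-1 site, TGAGTCA, from base 3, and the Meis3 sequence holds no match to any motif searched.

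The first question was whether the 8 genes were open at their starts. All 8 had at least 1 shared TSS peak, where 64.6% of all protein-coding genes had one. Each also had a TSS peak in either replicate taken alone (69.0% of all genes in replicate 1 and 67.7% in replicate 2). The count was 7 with hotspots in place of peaks, when Meis1 was lost, and 7 with the outermost 5′ end of each gene alone, when Pbx2 was lost. Meis1 did have a hotspot over its strongest TSS peak in both replicates, 2239 bp wide in replicate 1 and 383 bp in replicate 2. Together the 8 genes had 36 TSS peaks in replicate 1, 30 in replicate 2 and 20 that were shared. Meis2, Pbx3 and Pknox1 had 3 or more shared TSS peaks, as did 9.61% of all genes. The members have 5 to 16 annotated TSSs each, and a gene with more of them has more chances of a peak. Shared TSS peaks were the stronger ones, with a median signal of 83.5 in replicate 1 and 60.5 in replicate 2, against 44 and 33.5 for those not shared. In all 20 the signal was higher in replicate 1, and over these 20 peaks, which share libraries and genes, Spearman's rho between the replicates was 0.945.

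**Figure D1:**
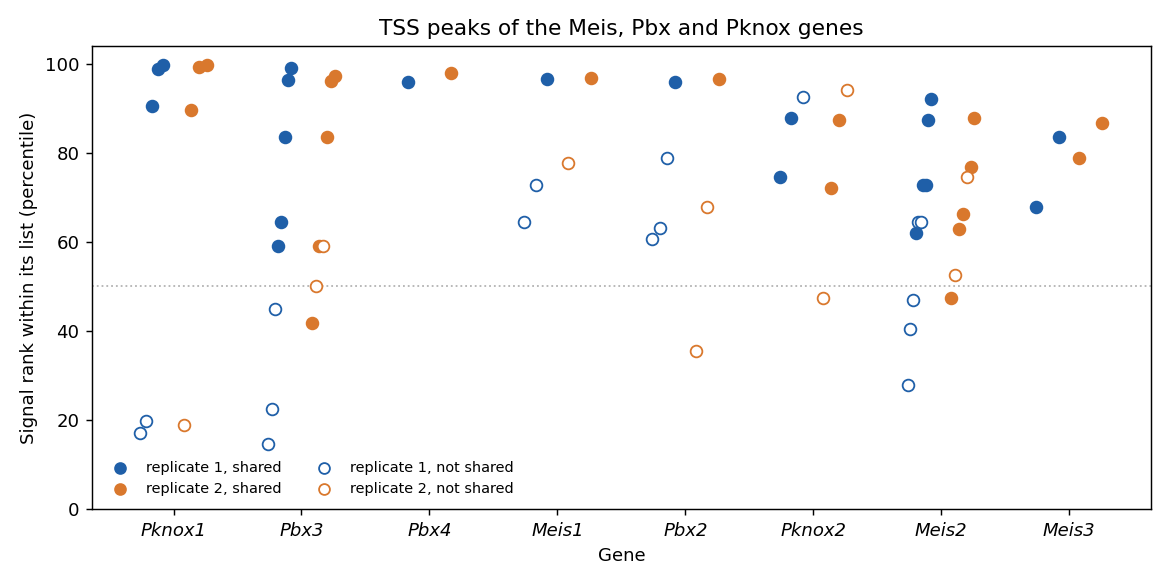
Rank of the signal of every TSS peak of the 8 genes within its own list (percentile, vertical axis), with replicate 1 in blue, replicate 2 in orange, shared peaks filled and others open. The dotted line is the median peak. The strongest peak of every gene lies above the 80th percentile in both replicates, from 99.8 at Pknox1 down to 83.5 and 86.8 at Meis3.

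By the rank of its strongest TSS peak, Pknox1 stood first and Meis3 last. The mean over the replicates was 99.8 at Pknox1, 98.1 ± 1.27 (SD, n = 2) at Pbx3, 96.9 ± 1.56 at Pbx4, 96.7 ± 0.141 at Meis1, 96.15 ± 0.495 at Pbx2, 93.3 ± 0.99 at Pknox2, 89.9 ± 2.97 at Meis2 and 85.15 ± 2.33 at Meis3. The range of Pbx4 over the replicates, 95.8 to 98.0, overlapped those of Pbx3, Meis1 and Pbx2, so its place among them has no order beyond the spread between replicates. Pbx3, Meis1 and Pbx2 did not overlap one another, with 99.0 and 97.2 at Pbx3, 96.6 and 96.8 at Meis1 and 95.8 and 96.5 at Pbx2, although the last pair lay only a little apart. The values of Pknox1 lay above those of all other members in both replicates, and those of Meis3 lay below.

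Meis1 (chr11:18879817-19018985, minus strand), a proximal limb factor, was open at the outer end of its first exon. A single shared peak at chr11:19018956-19019105, 46 bp upstream of the 5′ end, had signals of 119 (replicate 1) and 96 (replicate 2). Replicate 1 had weaker peaks of 51 and 59 beside TSSs in introns 2 and 1, and replicate 2 had a peak of 48 in the 5′ leader. None of these was shared. The hotspot over the strongest peak was 2239 bp wide in replicate 1 and 383 bp in replicate 2.

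Meis2 (chr2:115863064-116065839, minus strand), its close relative, had 16 annotated TSSs, with 10 TSS peaks in replicate 1, the most of any member, and 7 in replicate 2, of which 5 were shared. Pbx3 also had 7 in replicate 2 and 5 shared. Within the first 2 kb of the gene the shared peaks, counted from the 5′ end, had signals of 96, 59, 59 and 83 (replicate 1) and 62, 47, 37 and 39 (replicate 2). The fifth, at an internal TSS in intron 9 that lies 193 kb into the gene, had 49 and 30. The strongest of them, at chr2:116065656-116065805, lay in the 5′ untranslated exon. Thus several shared peaks lay at the Meis2 start, where Meis1 had 1 within 500 bp of a TSS. Meis1 has only 7 annotated TSSs, and with a TSS window of 1000 bp it had 2 shared TSS peaks against 6 at Meis2. A further shared peak of Meis1, stronger than its TSS peak, lay 1.51 kb upstream.

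Meis3 (chr7:16175090-16186504, plus strand) had 2 shared TSS peaks. The peak at the 5′ end of the gene, in an untranslated exon, had 54 (replicate 1) and 49 (replicate 2). A stronger peak, of 75 and 60, lay 8.8 kb into the gene in intron 9 at chr7:16183816-16183965, beside an internal TSS. Meis3 is thus the member whose strongest TSS peak was farthest from its outermost 5′ end.

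Pknox1 (chr17:31564734-31607693, plus strand), which encodes PREP1, had 3 shared peaks within 1 kb. The strongest, at chr17:31564416-31564565, lay 243 bp upstream of the nearest TSS, inside an exon of the antisense transcript AC166172.4, with signals of 139 (replicate 1) and 123 (replicate 2). The next had 132 and 116, and the third 91 and 66. Reads carry no strand here, so openness of the gene and of its antisense partner cannot be separated. In both replicates the peaks lay in a single hotspot, 2529 bp wide in replicate 1 and 1405 bp in replicate 2. Internal TSSs near 19 kb had only weak peaks, 28 and 29 in replicate 1 and 21 in replicate 2, none of them shared.

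Pknox2 (chr9:36890982-37147407, minus strand), which encodes PREP2, had 3 TSS peaks called in replicate 1, while replicate 2 had 4. The strongest of each replicate did not count as shared, since it started at 37147196 in replicate 1 (signal 98) and at 37147376 in replicate 2 (signal 80). Each lay inside a hotspot of the other replicate. The shared peaks had 84 and 61, in intron 1 just inside the gene, and 61 and 43 farther in.

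Pbx3 (chr2:34171457-34373142, minus strand) had 8 TSS peaks (replicate 1) and 7 (replicate 2), of which 5 were shared. The strongest, at chr2:34372716-34372865, had signals of 133 (replicate 1) and 99 (replicate 2), and a neighbour at the 5′ end had 117 and 92. Weaker shared peaks followed at 1.05 kb (75 and 55) and 1.91 kb (51 and 35) into the gene. The fifth lay 84.3 kb into the gene (47 and 28), in intron 2, where the antisense gene C79798 also lies. The promoter hotspot was 2932 bp wide in replicate 1, the widest of the members there, and 927 bp in replicate 2.

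Pbx4 (chr8:69832491-69872292, plus strand) had 1 TSS peak in each replicate, at chr8:69832356-69832505 in replicate 1, with signals of 114 and 105. Pbx2 (chr17:34591266-34597400, plus strand) had 4 and 3 TSS peaks, of which 1 was shared. It lay at chr17:34592156-34592305, 0.965 kb inside the annotated 5′ end, with 114 and 94. The outermost part of Pbx2 overlaps the end of Gpsm3, another coding gene, and held only weak peaks there, 50 in replicate 1 and 26 in replicate 2, neither shared.

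The openings at Meis1, Pbx3 and Pbx4 are shown as the part of the strongest TSS peak that lies outside annotated exons, since these 3 promoters differ in base composition. They are the plus strand at chr11:19018986-19019105, chr2:34372716-34372865 and chr8:69832356-69832490. Capitals mark GGGCGG or CCGCCC, the core of SP and KLF sites.
Meis1 start: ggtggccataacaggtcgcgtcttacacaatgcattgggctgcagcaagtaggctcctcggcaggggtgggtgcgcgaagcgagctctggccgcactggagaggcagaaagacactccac
Pbx3 start: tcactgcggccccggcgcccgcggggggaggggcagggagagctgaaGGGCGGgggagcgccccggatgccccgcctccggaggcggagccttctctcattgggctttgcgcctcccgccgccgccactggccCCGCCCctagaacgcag
Pbx4 start: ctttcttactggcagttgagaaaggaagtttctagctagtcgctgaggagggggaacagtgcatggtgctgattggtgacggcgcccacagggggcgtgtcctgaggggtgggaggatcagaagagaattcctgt
The Pbx3 stretch has 2 SP and KLF cores, and those of Meis1 and Pbx4 have none. Over all 20 shared TSS peaks of the members the SP and KLF core was in 7 (35.0%), where it was in 46.5% of the 22234 shared TSS peaks of all genes, and the median GC content was 65.3% against 64.0%.

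The second question was how many open sites surround each gene. Of the 8 members 7 had a shared distal peak, against 64.9% of all protein-coding genes, and the same 7 had one in each replicate alone (73.1% of all genes in replicate 1 and 70.9% in replicate 2). In all there were 154 distal peaks in replicate 1 and 115 in replicate 2, with 70 shared. Among the 50000 strongest peaks of each list the 7 members became 5 and the 70 peaks became 18. The median member had 7 shared distal peaks and the median gene 1 (mean 3.46). Counts grow with the territory, which is the sequence that the rule gives to a gene. The median territory of all genes was 40.7 kb, and those of the members ran from 0.266 kb at Pbx2 to 381 kb at Meis2.

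**Figure D2:**
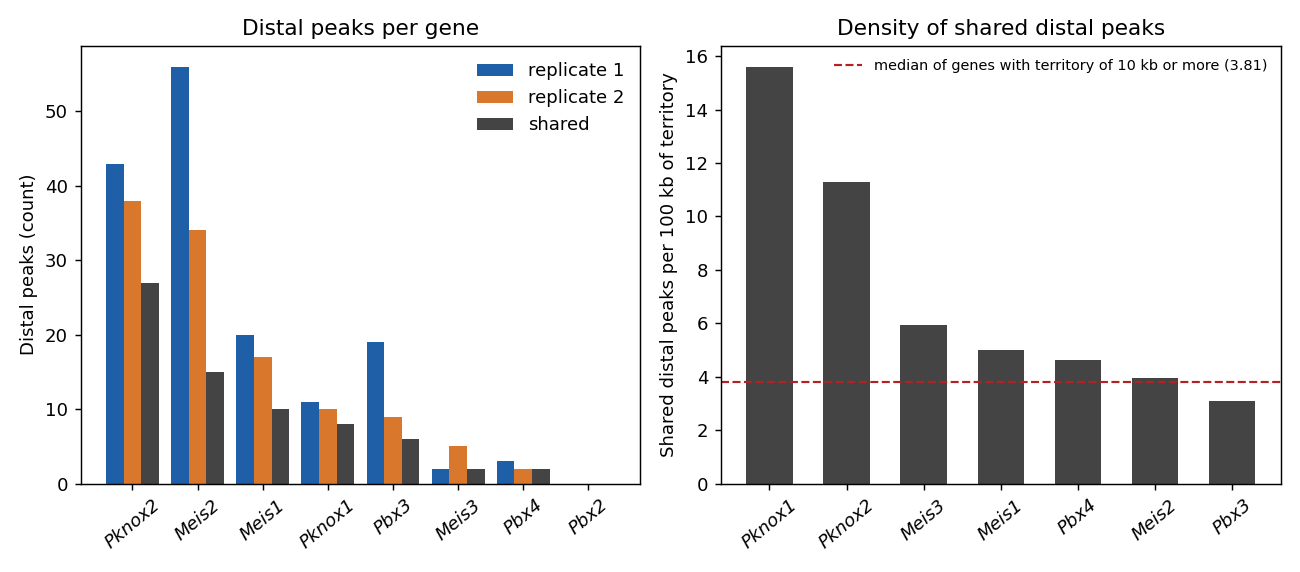
Left, distal peaks of each gene in replicate 1 (blue), replicate 2 (orange) and shared (grey), as counts. Right, shared distal peaks per 100 kb of territory for the 7 genes with a territory of at least 10 kb, with the median of all such genes (3.81) as a dashed line. Pknox2 has the most shared peaks (27), and Pknox1 (15.6) and Pknox2 (11.3) have the highest densities.

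The PKNOX genes had the densest surroundings. Pknox2 had 43 distal peaks in replicate 1 and 38 in replicate 2, of which 27 were shared, a count at the 99.1st percentile of all genes. Its density was 11.3 shared peaks per 100 kb, at the 88.7th percentile of 18792 genes with a territory of at least 10 kb, whose median was 3.81. Pknox1 had 11, 10 and 8 in only 51.3 kb, or 15.6 per 100 kb, at the 95.3rd percentile. Its 8 shared peaks became 7 with overlapping peaks merged, and the peak 1.05 kb from a TSS lay in the promoter hotspot of replicate 1. Meis1, with 20, 17 and 10, had 4.98 per 100 kb (58.7th percentile), and Meis2, with 56, 34 and 15, had 3.94 (51.0th). Meis3 had 5.92 per 100 kb from 2 shared peaks, Pbx4 4.64 from 2 and Pbx3 3.08 from 6. These 5 densities lay between the 44.4th percentile (Pbx3) and the 65.1st (Meis3). The territories of Meis1, Meis2 and Pbx3, 201, 381 and 195 kb, were long beside the median of 40.7 kb, whereas that of Meis3 was 33.8 kb. Pbx2 had none in either replicate: other coding starts crowd it, and its territory of 0.266 kb leaves almost no room for a distal peak.

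Around Meis1 the shared distal peaks lay mostly upstream, 7 of 10, with 3 in introns. The strongest, shown above, lay in intergenic sequence 1.51 kb upstream and had signals of 126 (replicate 1) and 108 (replicate 2), above that of the TSS peak in both. In replicate 1 it lay in the same hotspot of 2239 bp as that TSS peak, and in replicate 2 in a separate one of 416 bp. The next, at chr11:19024576-19024725 and 5.67 kb upstream, had 88 and 60. The third, at chr11:19091456-19091605, had 79 and 62 at 72.5 kb upstream. The intronic peaks, in introns 7 and 8, were weaker, with signals of 35 to 54 in replicate 1 and 22 to 43 in replicate 2.

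Few other coding starts lie near Meis1, and many peaks beyond the limit of 100 kb also had it as their nearest coding gene. Between 100 and 500 kb from its TSSs there were 71 peaks in replicate 1, 56 in replicate 2 and 32 shared, of which 20 lay upstream, 10 downstream and 2 within the gene. At Meis2 there were 9, 6 and 4 in that range, at Pbx3 10, 5 and 4, and at the other members none. By mean rank the leading shared peak among the 32 at Meis1 lay 166 kb from the nearest TSS on the downstream side, at chr11:18845616-18845765, with signals of 89 (replicate 1) and 79 (replicate 2). The next lay 120 kb upstream at chr11:19138536-19138685, with 84 and 78. In replicate 1 alone the strongest were 2 peaks just past the 3′ end of the gene, starting at 18877576 and 18878116, with 93 each, where replicate 2 had 62 and 63.

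**Figure D3:**
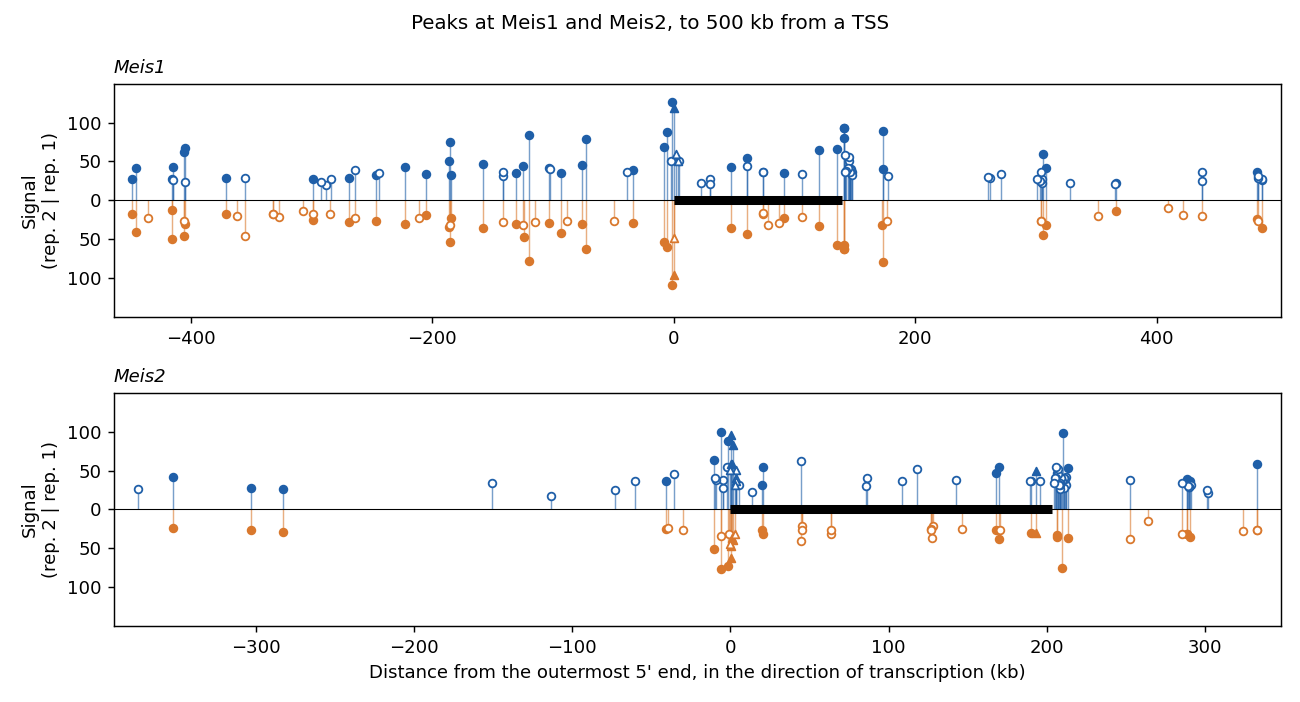
Peaks given to Meis1 (top) and Meis2 (bottom) as far as 500 kb from a TSS, by distance from the outermost 5′ end in the direction of transcription (kb). Signal is drawn upwards for replicate 1 (blue) and downwards for replicate 2 (orange), filled where shared and open where not, with triangles for TSS peaks, circles for distal peaks and a black bar for the gene. Just past the right end of each gene, replicate 1 has a dense run of mostly open symbols that replicate 2 lacks.

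At Meis2 the 15 shared distal peaks were spread over both flanks and the gene, with 4 upstream, 5 in introns and 6 downstream. The strongest lay 5.83 kb upstream in an intron of the long noncoding RNA gene G630016G05Rik, with 99 (replicate 1) and 76 (replicate 2), and it holds the TALE hexamer. A peak of nearly the same strength, 98 and 75, lay in intergenic sequence at chr2:115855936-115856085, past the 3′ end and 12.9 kb from an internal TSS. The third, at chr2:116067076-116067225 in an exon of the noncoding gene 2700033N17Rik, had 88 and 72. It lay 1.31 kb upstream of Meis2 and within 500 bp of the starts of 2700033N17Rik and G630016G05Rik. In replicate 1 its hotspot of 1449 bp also held a TSS peak of Meis2 that was not shared.

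Past the 3′ ends of Meis1 and Meis2 the replicates differed strongly in number of peaks. In the 10 kb after the end of Meis2 (chr2:115853064-115863063) replicate 1 had 19 peaks with signals of 26 to 98, and replicate 2 had 3. In the 10 kb after the end of Meis1 (chr11:18869817-18879816) replicate 1 had 15, of 33 to 93, and replicate 2 again had 3. With overlapping peaks merged, the numbers in replicate 1 were 19 at Meis2 and 12 at Meis1. Hotspots covered 47.0% of the Meis2 window and 35.2% of the Meis1 window in replicate 1, against 4.81% and 8.76% in replicate 2.

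These 2 windows were looked at after the values were seen. Of 21938 genes, 5 had more peaks in such a window than Meis2 in replicate 1 and 12 had more than Meis1, while in replicate 2 both were among 1058 genes that had 3. For the other 6 members 0 to 2 peaks were counted in either replicate. Windows with 5 or more peaks, as at these 2 members, made up 2.65% of all genes in replicate 1 and 1.94% in replicate 2, where no member had one. In the lists given at the end, 3 of 22 proximal limb and partner genes, 4 of 10 distal limb genes and 0 of 9 other TALE genes had such a window in replicate 1, against 2, 1 and 0 in replicate 2. Dlx5 and Dlx6, neighbouring distal limb homeobox genes, had 22 each in replicate 1 and 4 each in replicate 2. The same peaks may be counted in both windows, so the 4 distal limb genes may not be 4 separate loci. By contrast, Rxra had 4 and 5 and Emx2 had 2 and 4. Both windows are rich in CpG, as are those of Pbx4 and Pbx2. The Pbx4 window had 2 peaks in each replicate, and hotspots covered 5.49% and 5.09% of it. In the Pbx2 window 0 peaks were counted, yet hotspots covered 19.9% of it in replicate 1 and 23.9% in replicate 2. Other coding starts crowd Pbx2, with a territory of 0.266 kb, so this 0 does not mean a closed window. It cannot be set beside the counts at Meis1 and Meis2, and counts and ranks of other windows crowded by coding starts may be affected likewise. The ratio of observed to expected CpG was 0.517 at Meis1 and 0.455 at Meis2, at the 99.7th and 99.0th percentiles of genes (median 0.199), with GC contents of 48.0% and 44.1% (median 44.8%). At Pbx4 and Pbx2 the ratio was 0.396 and 0.363 (97.1st and 95.0th percentiles), with GC contents of 55.7% and 54.9%. Whether base composition, depth or the library plays a part in the difference was not tested.

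Meis3 had 2 shared distal peaks. That shown above lay 21.3 kb upstream, inside an intron of the neighbouring gene Slc8a2, with 74 (replicate 1) and 41 (replicate 2). The other lay past the 3′ end at chr7:16192516-16192665, with 76 and 40. Replicate 2 had 3 further peaks of 19 to 27 in Slc8a2.

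At Pknox1 the strongest shared distal peak lay 7.06 kb upstream in an exon of the noncoding gene 4833413E03Rik, with 100 (replicate 1) and 83 (replicate 2). Of the other 7, 5 lay within the gene, in introns 1 and 2, and 2 lay farther upstream, with signals of 28 to 64 in replicate 1 and 23 to 43 in replicate 2. The signals outside the promoter were thus below those inside it, apart from the upstream site.

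At Pknox2 24 of the 27 shared distal peaks were spread along the gene itself. The strongest, in intron 2 and 29.0 kb from a TSS, had signals of 107 (replicate 1) and 89 (replicate 2). Those at chr9:36933816-36933965 in intron 6 (97 and 77) and at chr9:37030416-37030565 in intron 2 (89 and 84) followed. All 3 stood above the strongest shared TSS peak of the gene, which had 84 and 61, in each replicate. The strongest TSS peaks, which did not count as shared, had 98 in replicate 1 and 80 in replicate 2. Only the distal peak of 107 and 89 exceeded these in both replicates. The remaining 3 shared distal peaks lay 26.2 to 30.3 kb upstream, with signals of 33 to 69 and 30 to 49.

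**Figure D4:**
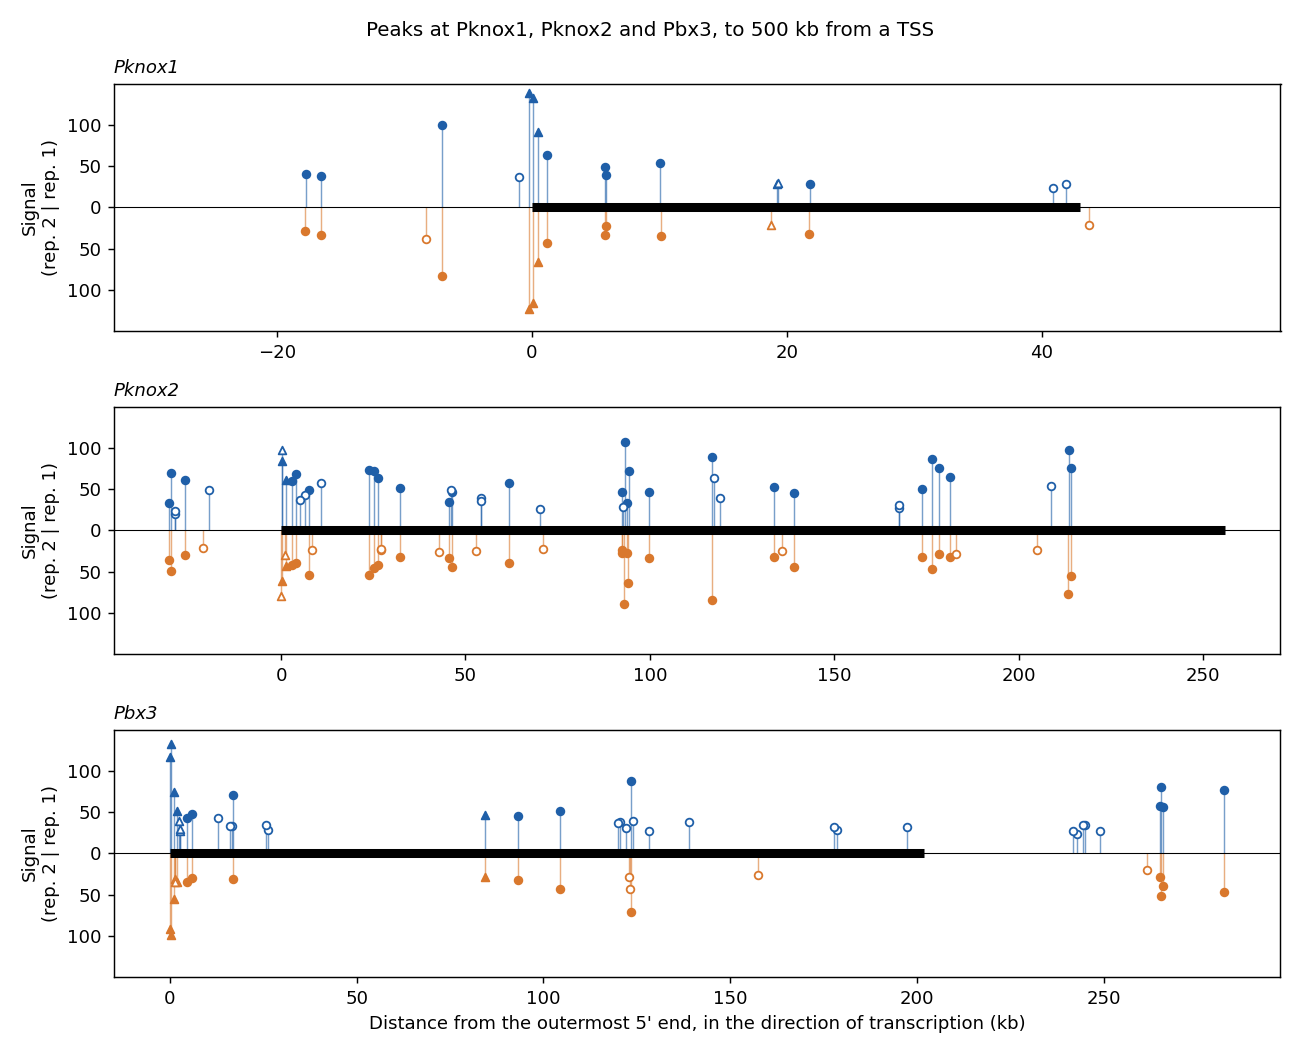
Peaks given to Pknox1, Pknox2 and Pbx3 by distance from the outermost 5′ end in the direction of transcription (kb), drawn as for Meis1 and Meis2: signal upwards in blue for replicate 1 and downwards in orange for replicate 2, filled where shared, triangles for TSS peaks, black bar for the gene. Pknox1 has its strongest peaks at the start, Pknox2 has peaks along the gene, and Pbx3 has 6 shared distal peaks, all in the gene, plus 4 beyond 100 kb from a TSS.

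At Pbx3 the 6 shared distal peaks lay within the gene, 5 in introns and 1 in a noncoding exon. The strongest, in intron 2 and 39.2 kb from a TSS, had 88 (replicate 1) and 71 (replicate 2) and holds the TALE hexamer. The others had 43 to 71 in replicate 1 and 30 to 43 in replicate 2. Replicate 1 had 13 more distal peaks that were not shared, where replicate 2 had 3. Pbx4 had 2 shared distal peaks, 1 past its 3′ end with 80 in replicate 1 and 34 in replicate 2, and 1 in intron 1 with 33 and 30.

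Taken over all members, 44 of the 70 shared distal peaks (62.9%) lay inside the gene they were given to, where 47.7% of all 75905 shared distal peaks did. Pknox2 alone supplied 24 of the 44. Of the 70, 45 were intronic, 18 intergenic, 5 in noncoding exons and 2 in untranslated exons of a coding gene. Their median signal was 53.5 in replicate 1 and 35.5 in replicate 2, and that of the distal peaks not shared was 36 and 26. The median of all distal peaks was 40 and 30.

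The third question was how far the replicates share these distal calls. In replicate 1, 70 of 154 distal peaks of the members were shared (45.5%, 95% Wilson interval 37.8 to 53.3), against 60.2% of all distal peaks. In replicate 2 the portion was 72 of 115 (62.6%, 53.5 to 70.9), against 65.0%. The intervals cover the counting of peaks and not the variation between embryos. Genes differed: 72.7% of the replicate 1 peaks of Pknox1, 62.8% of those of Pknox2 and 50% of those of Meis1 were shared, but 31.6% of those of Pbx3 and 26.8% of those of Meis2. Without Meis2 the members' portion in replicate 1 was 56.1% (46.3 to 65.5). Leaving out Pknox2 moved it the other way, to 38.7% (30.2 to 48.0). With any other single member left out it was 43.4% to 47.4%. Meis2 had 29 peaks downstream of the gene in replicate 1 against 10 in replicate 2, and these include the run past its 3′ end. In the shared distal peaks the signal was higher in replicate 1 in 66 of 70, and Spearman's rho between replicates was 0.722 over these 70 peaks.

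**Figure D5:**
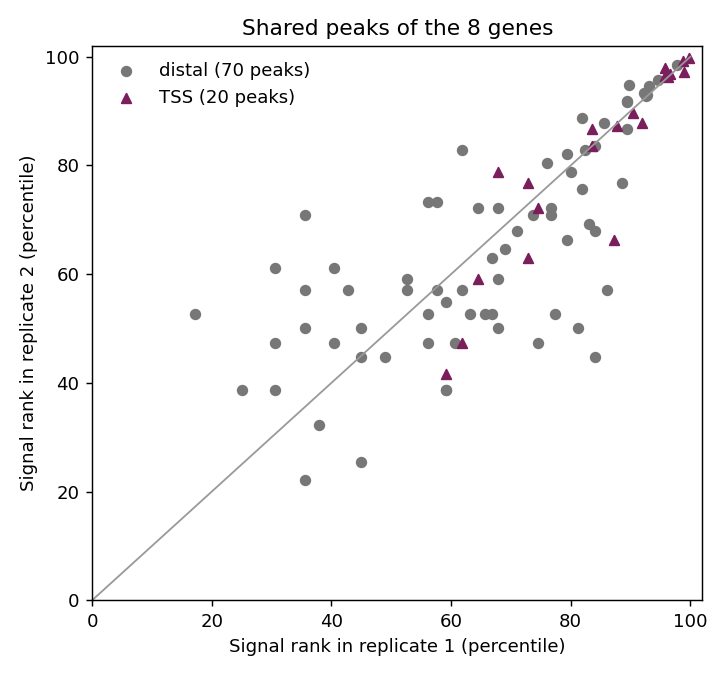
Rank of the signal within its list (percentile) in replicate 1 (horizontal) and replicate 2 (vertical) for the 20 shared TSS peaks (purple triangles) and 70 shared distal peaks (grey circles) of the 8 genes. The line marks equal rank. Ranks lie close to the line above about the 90th percentile and scatter below it, with rho of 0.945 for TSS peaks and 0.722 for distal peaks.

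The 150 bp of each shared distal peak were searched for 14 motifs on both strands with exact matches. The TALE hexamer TGACAG was in 5 of 70 peaks of the members (7.14%, 95% Wilson interval 3.09 to 15.7), an interval that holds the 11.6% of all shared distal peaks. Among the 50000 strongest peaks of each list the count was 4 of 18 (22.2%, 9.0 to 45.2), and this interval also holds the 10.3% of all. Neither set thus shows a difference in either direction. The 5 peaks were the upstream Meis2 peak, a Meis2 peak in intron 9, the Pbx3 peak in intron 2, the upstream Pknox1 peak and a Pknox2 peak in intron 1, in that order with signals of 99, 55, 88, 100 and 73 (replicate 1) and 76, 38, 71, 83 and 54 (replicate 2). The PBX-MEIS composite TGATTGACA, which contains most of the hexamer, was in 0 of 70 (0.165% of all), and the PBX-HOX composite TGATTNAT was in 3, 2 at Meis2 and 1 at Pbx3 (4.29% against 2.28%). The posterior HOX site TTTACGA was in 0 (0.491% of all).

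For partners outside the family, the E-box CAGCTG was in 21 of 70 (30.0%, 20.5 to 41.5, against 20.1%), of which 6 were at Pknox2, 5 of 8 at Pknox1, 4 at Meis1 and 4 at Meis2. The E-box CAGATG, of the kind bound by TWIST1 in mesenchyme, was in 8 (11.4%, 5.91 to 21, against 19.1%). The AP-1 site TGANTCA was in 7 (10% against 6.49%), the TEAD site GGAATG in 10 (14.3% against 13.3%) and the SP and KLF core GGGCGG in 6 (8.57% against 6.84%). The SOX site ATTGTT was in 7 (10% against 6.34%), the RUNX site TGTGGT in 11 (15.7% against 12.5%) and the GATA site AGATAA in 4 (5.71% against 4.60%). With 70 peaks the intervals are wide. Of these 8 shares, that of the E-box CAGCTG had an interval that lay just above the value of all shared distal peaks, and the intervals of the other 7 held it.

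The CTCF consensus was in 1 of 70 (1.43%, 0.253 to 7.66, against 6.52%), the Meis2 peak past the 3′ end with signals of 98 and 75. A retinoic acid response element of the DR5 kind, direct repeats bound by RAR and RXR, was also in 1 of 70 (1.43%, 0.253 to 7.66, against 0.0975%). Its interval lay above the value of all shared distal peaks but rests on 1 match. The match lay in a weaker peak at chr2:115776996-115777145, with 35 in replicate 1 and 31 in replicate 2. That peak was in an untranslated exon of the neighbouring gene BC052040, 91.8 kb from the nearest TSS of Meis2. Matches describe the letters in these windows and do not show binding.

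The PBX-MEIS composite was found at the starts of Meis1 and Meis2, a pattern noticed after the values were seen. In both genes it lies in the 5′ untranslated exon, at chr11:19018610-19018638 in Meis1 and chr2:116065255-116065283 in Meis2, and the sequences are shown on the minus strand, which is the sense strand of both genes. Capitals mark the composite with the TALE hexamer that overlaps it and the E-box that overlaps the hexamer.
Meis1 leader site: acctcgcctgTGATTGACAGCTGgagtgg
Meis2 leader site: ttccgggcttTGATTGACAGCTGgagtgg
Of the 29 bases shown 23 are identical (79.3%), and the last 19 are the same in both. The site lay 570 bp from the 5′ end of Meis2, in a shared peak of 59 and 47, and 361 bp from that of Meis1, in a peak that only replicate 2 had (signal 48). At Meis1 a hotspot of each replicate covered it, with −log10 q of 100, the ceiling of the scale, in replicate 1 and 3.24 in replicate 2, and at Meis2 the values were 100 and 5.52. The composite was in 1 of the members' 20 shared TSS peaks and in 62 of all 22234 (0.279%). The full run of 13 capitals was in 4 shared TSS peaks and 2 shared distal peaks of any gene. It was within 500 bp of a TSS of 16 of 21938 genes (0.0729%), among them the limb factor Tbx4. The shorter run TGACAGCTG, hexamer and E-box without the PBX part, was in the upstream Pknox1 peak as well, and in 0.481% of all shared TSS peaks and 0.946% of all shared distal peaks.

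The other TALE genes and the limb genes that act with MEIS and PBX proteins were described in the same way. Of 9 other TALE genes 7 had a shared TSS peak, with a median of 7 shared distal peaks. Mkx, a tendon factor, and Irx3 had 12 each, Irx4 had no TSS peak in either replicate, and Irx6 had 2 in replicate 1 and 0 in replicate 2. Of 22 proximal limb and partner genes 21 had one, with a median of 9 distal peaks. Rxra, a partner of retinoic acid receptors, had 25, Gli3, an effector of Hedgehog signalling, had 18 and Hand2 had 17, and Hoxc9 had no TSS peak. Of 10 distal limb genes 9 had a shared TSS peak, with a median of 7 distal peaks: Cyp26b1, which degrades retinoic acid, had 19, and Sall1 had TSS peaks in both replicates that were not shared. The members' median of 7 distal peaks lies within the range of these lists. All 8 members had a shared TSS peak where 1 or 2 genes of each list lacked one, a small difference. The members' count was 7 with hotspots or with the outermost 5′ end alone, and 64.6% of all protein-coding genes had such a peak.

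The genes whose counts of TSS and distal peaks and territory were most like those of Meis1 were Setbp1, Rps6ka2 and Adgrb1, with summed absolute log2 differences over 5 measures of 0.102, 0.331 and 0.413. Setbp1 had 3 and 2 TSS peaks and 20 and 16 distal peaks in replicates 1 and 2, where Meis1 had 3 and 2, and 20 and 17. Those most like Meis2 were Iqsec1, Stox2 and Schip1, at 1.03, 1.06 and 1.08. Stox2 had 9 TSS peaks in each replicate and 55 and 42 distal peaks, where Meis2 had 10 and 7, and 56 and 34. Meis1 thus had close counterparts in this measure, and those of Meis2 were less close.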

How the data were processed

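DNase-seq of limb tissue was used from 1 group with 2 libraries. Per the labels, regions were placed on mm10; how they were aligned, called and filtered is not given in the sources used here. For each library, the authors deposited peaks with a signal and hotspots with a −log10 q-value that ends at a ceiling of 100. The deposited signal holds whole numbers of unknown scaling, so it was compared between libraries by rank. The number of reads behind each library is unknown.

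Peaks on autosomes, X and Y were used (208674 of 208965 in replicate 1, 196593 of 196870 in replicate 2). GENCODE M21 gave genes and TSSs, and RefSeq's GRCm38 assembly gave the sequences. Shared peaks were covered by at least 50%, at the coordinates of replicate 1. Introns are numbered along the transcript with the longest coding sequence. Gene-level percentiles are mid-ranks. Python 3.11.15, pandas 2.3.3, numpy 2.4.6, scipy 1.17.1 and matplotlib 3.10.9 were used, and the assignment of peaks was checked on simulated intervals. No test was run, since the design has 1 group.

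The members, lists and motifs were chosen with earlier results of these data known. The named genes were all members, for each member its TSS peaks and, with 3 or more shared distal peaks, the 3 of highest mean rank, every gene of a list that leads it or lacks a TSS peak, and 3 genes of most similar pattern for Meis1 and Meis2. The windows past the 3′ ends, the site in the leaders of Meis1 and Meis2 and the genes named beside them were chosen after their values were seen. The alternatives were an overlap of 1 bp, coordinates of replicate 2, the 50000 strongest peaks, hotspots, each replicate alone, other TSS windows and TSS sets, other distance limits and, added after seeing the data, merging of overlapping peaks.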

Additional observations from a re-analysis of the deposited data

How the results depend on the processing

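No paired analysis was possible because the study has 1 group. The count of members with a shared TSS peak was 8. It was 7 with hotspots in place of peaks, where Meis1 was lost despite a hotspot over its start in each replicate. It was also 7 with the outermost 5′ end of each gene alone, where Pbx2 was lost. The 20 shared TSS peaks became 12 with the 50000 strongest peaks, 12 with hotspots and 10 with the outermost 5′ end, and 30 to 36 with 1 replicate left out. The 70 shared distal peaks became 18 with the 50000 strongest peaks, 110 within 500 kb and 115 to 154 with 1 replicate left out. The portion of distal peaks of replicate 1 that was shared, 45.5%, was 62.6% at the coordinates of replicate 2 and 64.3% with the 50000 strongest peaks. The portion of shared distal peaks with the TALE hexamer, 7.14%, was 6.49% with an overlap of 1 bp, 8.33% at the coordinates of replicate 2, 22.2% with the 50000 strongest peaks, 9.84% with hotspots, 6.9% with the outermost 5′ end, 8.33% within 50 kb, 6.36% within 500 kb and 8.44% to 8.7% with 1 replicate left out. Fewer peaks or samples entered some of these counts by construction, and for the rest the cause was not tested. Of 60 alternative values 41 stayed within 1.5 times the count or within the spread between replicates. The unknown depth limits every absence stated here, and nearest-gene assignment does not show which gene a site acts on.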
